A study of Ovis aries with 4 samples.

Results

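The genes described here are 9 transcription factors of the trophectoderm lineage, namely CDX2, GATA2, GATA3, TFAP2A, TFAP2C, TEAD3, GRHL1, HAND1 and MSX2. They were found by name in the deposited expression table, where all 9 occur once each among 25197 features. The table holds 4 sheep conceptuses (embryo with its membranes) taken on day 14 of pregnancy, each from a different Columbia and Rambouillet crossbred ewe. They form 1 group with no treatment and no control, so levels are described across conceptuses and no contrast between conditions can be made. Values are RPKM, read numbers scaled by transcript length and library size, from RNA depleted of ribosomal RNA. The conceptuses are called 1 to 4 in the order in which the series lists them.

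The trophectoderm is the outer epithelium of the blastocyst and the source of the fetal part of the placenta. In ruminants it elongates into a filament before it attaches, and it secretes interferon tau, by which the ewe recognises pregnancy. In mouse, the TEAD factors with their coactivator YAP start the trophectoderm programme, CDX2 and GATA3 act below them, and AP-2 factors share many of their targets. GRHL1 is a factor of epithelial barrier and junction genes, HAND1 is needed for trophoblast giant cells in mouse, and MSX2 is a homeobox factor studied in human trophoblast. Each conceptus was sequenced whole, so a lower level of a gene can be fewer cells that express it or less RNA per cell, and these cannot be told apart.

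The label was first set against markers of cell types. Of the 20 measured genes of trophectoderm epithelium, 19 had a mean of 5 RPKM or more, a level called abundant from here on, as did 25.3% of all features. Among the highest were the keratin KRT8 at 6211 ± 1418 RPKM (SD, n = 4), the tight junction gene CLDN6 at 181 ± 69.6, and the adhesion genes EPCAM at 163 ± 30.3 and CDH1 at 133 ± 13.3 RPKM. The list summed to between 6237 RPKM in conceptus 3 and 9697 RPKM in conceptus 4. Hypoblast and yolk sac markers were mixed. Of 15, 8 averaged under 1 RPKM and 3 were abundant, among them APOA1 at 296 ± 105 and DAB2 at 170 ± 24.0 RPKM. Markers of the embryo proper were far lower. None of the 10 measured epiblast markers was abundant, and FGF4 and UTF1 among them were listed at 0 in all 4 conceptuses. Among mesoderm markers 2 of 19 were abundant, VIM at 10.8 ± 2.19 and PITX1 at 8.26 ± 1.62 RPKM, while T, the primitive streak factor, was at 0.04 RPKM in conceptus 1 and listed at 0 in the others.

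All 9 factors were abundant, and 5 of them averaged 20 RPKM or more, as did 11.4% of all features. GATA2 was just inside, and averaged 4.06 RPKM without conceptus 1 and 4.83 RPKM without conceptus 4. The median of the 9 means was 24.0 RPKM, beside 0.128 RPKM over all features and 17.3 RPKM over the 6374 abundant features. The highest, GRHL1, was 16.7 times the lowest, GATA2. By mean, GRHL1 ranked 763rd of all features, TEAD3 1184th, TFAP2C 1896th, GATA3 2114th and MSX2 2491st. Below them TFAP2A ranked 3760th, HAND1 3842nd, CDX2 4082nd and GATA2 6254th. Every factor was at 2 RPKM or more in each library, and 7 of the 9 were at 5 RPKM or more in each, the exceptions being HAND1 and GATA2. A second deposited table, described below, holds 5527 of the 25197 features and, of the 9 factors, these same 7. Whether it holds every feature at 5 RPKM or more in each library was not checked. The share of all features at 2 RPKM or more in each library was not computed, so these counts are a description.

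**Figure D1:**
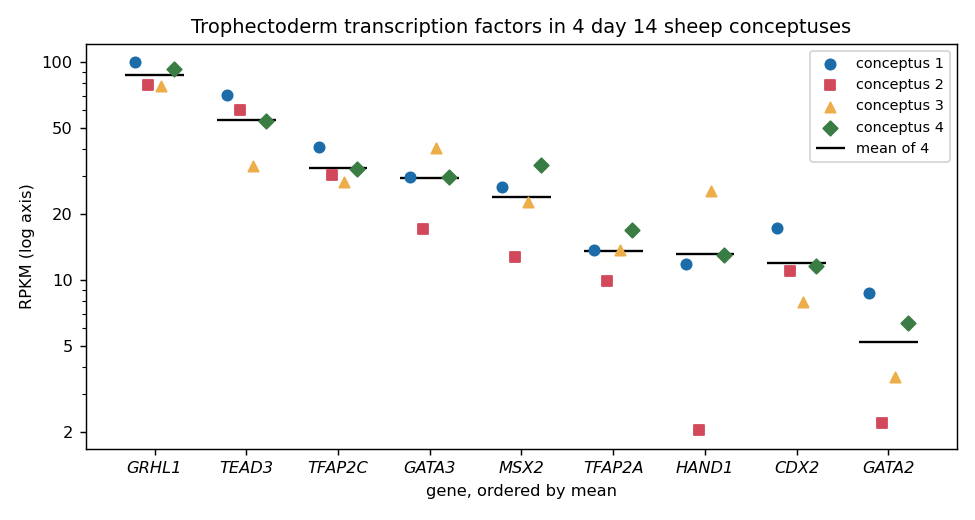
RPKM on a log axis for each of the 9 factors, ordered by mean, with 1 point per conceptus and a line at the mean of 4. GRHL1 lies between 77.5 and 99.7 RPKM, and HAND1 spreads from 2.04 to 25.6 RPKM.

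The order of the mean levels held a few steps between neighbours that kept their direction in all 4 conceptuses. GRHL1 was first in all 4 conceptuses and exceeded TEAD3 by 0.71 ± 0.362 on the log2(RPKM + 1) scale (mean difference within a conceptus ± SD, n = 4). TEAD3 exceeded TFAP2C by 0.67 ± 0.304, MSX2 exceeded TFAP2A by 0.72 ± 0.283, and CDX2 exceeded GATA2 by 1.13 ± 0.514, each in 4 of 4 conceptuses. The remaining 4 pairs of neighbours did not differ beyond their spread. TFAP2C minus GATA3 was 0.21 ± 0.552, GATA3 minus MSX2 was 0.29 ± 0.410, and TFAP2A minus HAND1 was 0.39 ± 1.11. HAND1 minus CDX2 was −0.18 ± 1.48, although HAND1 had the higher mean RPKM, because the low value of conceptus 2 weighs more on the log scale. The order from TFAP2C to MSX2 and that from TFAP2A to CDX2 are therefore not resolved. Factors that are not neighbours also crossed these steps. GATA3 was above TEAD3 and HAND1 above MSX2 in conceptus 3, and HAND1 was below GATA2 in conceptus 2.

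Each difference was tested within conceptuses by exact permutation of its signs (two-sided), whose smallest p with 4 conceptuses is 0.13, so none can pass 0.05. Of 31 differences, 8 between neighbours and 23 within gene families, 27 had the same sign in 4 of 4 conceptuses and reached that smallest exact p, which was 0.144 after Benjamini-Hochberg adjustment over the 31. Neighbours were ordered by their means in these same 4 conceptuses, and the factors were chosen with earlier results of these data known. The count of shared signs is therefore only a description. Over all 36 pairs among the 9 factors, 27 kept their order in every conceptus. Of the 9 pairs that crossed in at least 1 conceptus, none involved GRHL1 and 4 involved HAND1.

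CDX2, the homeodomain factor that maintains trophectoderm identity in mouse, was at 17.2, 10.9, 7.89 and 11.6 RPKM in conceptuses 1 to 4, a mean of 11.9 ± 3.90 RPKM. Conceptus 1 was highest, conceptus 3 lowest, and the ratio of these was 2.19. Of the other CDX genes, CDX1 did not exceed 0.05 RPKM in any library and CDX4 was listed at 0 in all 4. The CDX signal in these conceptuses was thus carried by CDX2, with a difference over CDX1 of 3.61 ± 0.397 on the log2(RPKM + 1) scale. That difference depends on the pseudocount of 1, and was 6.55 with a pseudocount of 0.1.

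CDX2 is also used in the posterior embryo, so markers of the embryo proper are given beside it. The 10 measured epiblast markers summed to 11.2, 6.89, 4.98 and 5.83 RPKM in conceptuses 1 to 4, highest in conceptus 1 and lowest in conceptus 3, as CDX2 was. POU5F1, the epiblast factor, was at 4.14, 1.58, 0.83 and 1.77 RPKM, and TDGF1, an epiblast co-receptor gene, at 5.23, 3.75, 3.40 and 2.41 RPKM. Their part in the spread of CDX2 was not tested. SOX2 did not exceed 0.19 RPKM in any library, and is named here with its values known.

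GATA3 and GATA2 are zinc finger factors that are used together in the trophoblast of mouse and human. GATA3 was at 29.7, 17.2, 40.4 and 29.8 RPKM in conceptuses 1 to 4, a mean of 29.3 ± 9.49 RPKM. It was highest in conceptus 3 and lowest in conceptus 2. GATA2 was at 8.67, 2.21, 3.60 and 6.37 RPKM, a mean of 5.21 ± 2.88 RPKM, highest in conceptus 1 and lowest in conceptus 2. GATA3 was thus the more abundant of the pair in each conceptus, but the ratio of GATA3 over GATA2 ranged from 3.43 in conceptus 1 and 4.68 in conceptus 4 to 7.78 in conceptus 2 and 11.2 in conceptus 3. On the log2(RPKM + 1) scale the difference was 2.35 ± 0.644.

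The other GATA genes mark blood and endoderm in vertebrate embryos and were lower. GATA1, the erythroid factor, was at 3.58, 1.16, 1.22 and 4.71 RPKM, with conceptuses 1 and 4 above 2 and 3. GATA2 exceeded it in 4 of 4 conceptuses, by 0.77 ± 0.353 on the log2(RPKM + 1) scale. The endoderm factors GATA4 and GATA6 stood at 1.87 ± 0.858 and 1.12 ± 0.326 RPKM, and GATA5 at 0.28 ± 0.175 RPKM. GATA2 is itself a factor of blood progenitors, so blood and endothelium markers are given beside it. The 10 measured markers summed to 6.63, 3.58, 2.87 and 7.28 RPKM in conceptuses 1 to 4, with GATA1 itself the highest on average. Without GATA1 they summed to 3.05, 2.42, 1.65 and 2.57 RPKM, highest in conceptus 1 and lowest in conceptus 3. The leukocyte gene CD68 was at 1.90, 1.83, 0.99 and 1.47 RPKM, while SPI1, TEK and LMO2 did not exceed 0.43 RPKM in any library. The part of blood cells in the GATA2 values was not tested.

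TFAP2C and TFAP2A encode AP-2 factors, which bind DNA as dimers and of which TFAP2C is needed for the trophoblast lineage in mouse. TFAP2C was at 40.6, 30.4, 28.1 and 32.2 RPKM in conceptuses 1 to 4, a mean of 32.8 ± 5.46 RPKM. TFAP2A was at 13.7, 9.89, 13.8 and 17.0 RPKM, a mean of 13.6 ± 2.92 RPKM. The ranges of the genes did not overlap, and TFAP2C exceeded TFAP2A by 1.22 ± 0.341 on the log2(RPKM + 1) scale, or 1.89 to 3.07 times in single conceptuses. The other AP-2 genes were near 0. TFAP2B stood at 0.173 ± 0.0818 RPKM, and TFAP2D and TFAP2E did not exceed 0.07 RPKM in any library.

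**Figure D2:**
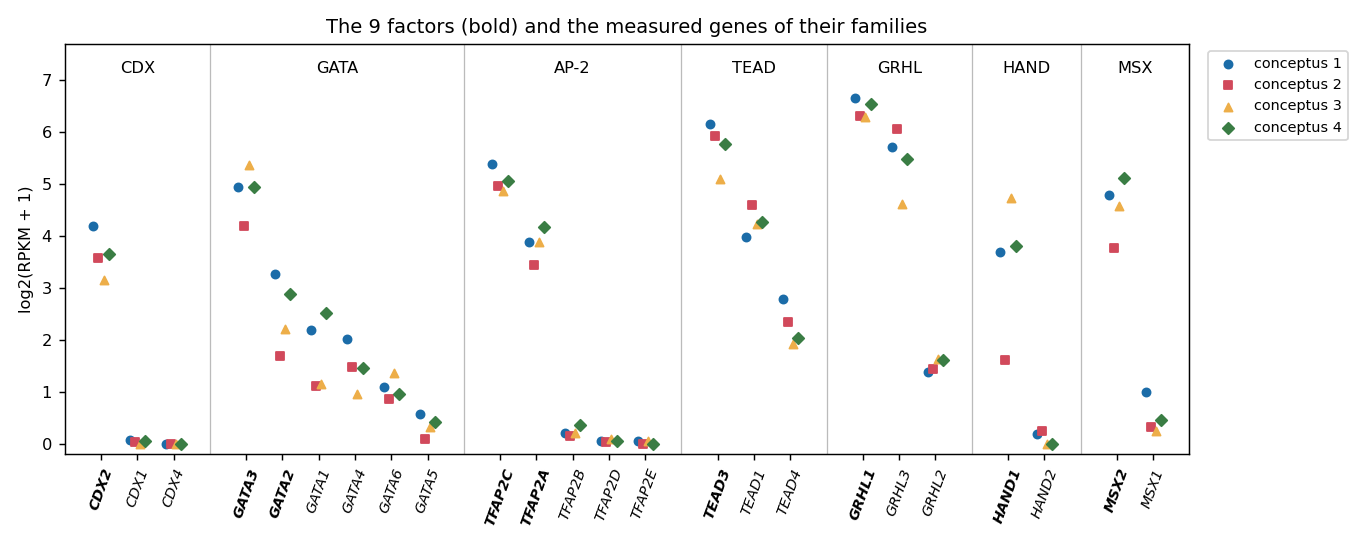
Level on the log2(RPKM + 1) scale of the 9 factors (bold) and of the measured genes of their families, 1 point per conceptus. In each family a named factor is the highest gene in all 4 conceptuses, and GRHL3 and TEAD1 are the other abundant genes.

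TEAD3 belongs to the TEAD factors, which bind DNA and need a coactivator such as YAP1 to switch on genes; the Hippo kinases keep YAP1 out of the nucleus. TEAD3 was at 70.3, 60.1, 33.4 and 53.4 RPKM in conceptuses 1 to 4, a mean of 54.3 ± 15.5 RPKM, with conceptus 3 below the others. TEAD1 was at 14.7, 23.1, 17.9 and 18.2 RPKM and was highest in conceptus 2. TEAD4, the TEAD gene on which the trophectoderm depends in mouse, was at 5.87, 4.06, 2.77 and 3.08 RPKM. TEAD3 exceeded TEAD1 by 1.47 ± 0.544 and TEAD4 by 3.47 ± 0.240 on the log2(RPKM + 1) scale, and was 12.0 to 17.3 times TEAD4 in single conceptuses. TEAD2 was not analysed here.

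Of the 21 measured genes of the Hippo pathway, 19 averaged 1 RPKM or more, as did 38.1% of all features, and 9 were abundant. The coactivator YAP1 was at 47.0, 38.5, 44.8 and 51.8 RPKM, a mean of 45.5 ± 5.54 RPKM. VGLL1, another coactivator of TEAD factors, was at 31.0, 39.8, 42.5 and 32.5 RPKM, a mean of 36.4 ± 5.59 RPKM. TEAD3 was above YAP1 in 3 conceptuses and at 0.747 times YAP1 in conceptus 3. The junction-bound inhibitors of YAP1 followed, with AMOT at 18.6 ± 2.74, WWC1 at 14.8 ± 1.55 and NF2 at 12.6 ± 2.69 RPKM. WWTR1, which encodes the YAP1 relative TAZ, and the YAP1 target genes CTGF and CYR61 were picked with their values known. WWTR1 was at 3.45, 1.92, 1.87 and 2.33 RPKM. CTGF was at 0.88, 0.74, 0.26 and 2.89 RPKM, and CYR61 was higher at 7.42, 6.94, 1.94 and 9.66 RPKM.

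GRHL1, a grainyhead factor of epithelia, was the highest of the 9 at 99.7, 78.1, 77.5 and 92.5 RPKM in conceptuses 1 to 4, a mean of 86.9 ± 10.96 RPKM. Its coefficient of variation of 12.6% was the lowest of the 9, and 20.6% of the abundant features, or 9.33% of all features above 0, had a lower one. GRHL3, which acts in epidermal barrier formation in mouse, was at 51.4, 65.7, 23.4 and 43.9 RPKM and was highest in conceptus 2. GRHL1 exceeded it in 4 of 4 conceptuses, 1.19 times in conceptus 2 and 3.31 times in conceptus 3. GRHL2, the member best known from simple epithelia in mouse, stood at 1.86 ± 0.247 RPKM, and GRHL1 was 36.9 to 62.7 times as high in single conceptuses. The grainyhead genes thus had a pair of abundant members.

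HAND1, a basic helix-loop-helix factor, was the most uneven of the 9. It was at 11.9, 2.04, 25.6 and 13.1 RPKM in conceptuses 1 to 4, a mean of 13.2 ± 9.68 RPKM, with conceptuses 1 and 4 alike, conceptus 2 far below and conceptus 3 far above them. The highest library was 12.6 times the lowest, a ratio that 0.345% of the 6374 abundant features reached or passed. Without conceptus 2 the ratio was 2.16, and without conceptus 3 it was 6.41. In rank among the 9 factors, HAND1 was at rank 9 in conceptus 2 and at rank 5 in conceptus 3. Its relative HAND2 was at 0.14 and 0.19 RPKM in conceptuses 1 and 2 and listed at 0 in the others.

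HAND1 is expressed in extraembryonic mesoderm as well as in trophoblast in mouse, so mesoderm markers are given beside it. The 19 measured mesoderm markers summed to 35.8, 27.9, 37.8 and 29.7 RPKM in conceptuses 1 to 4, highest in conceptus 3, as HAND1 was. Their sum was lowest in conceptus 2 as deposited, but in conceptus 4 with either rescaling of the libraries. Of the genes that led the list, PITX1 was highest in conceptus 3, at 10.4 RPKM, and VIM lowest there, at 8.83 RPKM. The collagen gene COL3A1, picked with its values known, was at 0.60, 0.60, 2.81 and 0.44 RPKM. The part of mesoderm in the spread of HAND1 was not tested. The trophoblast product TP-1, the interferon tau feature, was at 14004, 13397, 29709 and 24277 RPKM, also highest in conceptus 3. It was lowest in conceptus 2 as deposited, but in conceptus 1 with either rescaling.

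MSX2, a homeobox factor downstream of BMP signals in many embryonic tissues, was at 26.8, 12.7, 22.8 and 33.7 RPKM in conceptuses 1 to 4, a mean of 24.0 ± 8.78 RPKM. Conceptus 4 was highest and conceptus 2 lowest. MSX1 did not exceed 0.99 RPKM in any library, and MSX2 exceeded it by 4.06 ± 0.538 on the log2(RPKM + 1) scale, or by 5.59 with a pseudocount of 0.1. MSX2 and TFAP2A are also used in surface ectoderm. Of the 10 measured surface and neural ectoderm markers, none was abundant, and SIX3 was listed at 0 in all 4 conceptuses. The highest were DLX5, itself a trophoblast gene, at 3.69 ± 0.600 RPKM and the basal epithelial factor TP63 at 1.68, 1.03, 6.76 and 1.68 RPKM, while NES and KRT5 did not exceed 0.80 RPKM in any library.

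Every one of the 9 factors had its lowest value in conceptus 2 or conceptus 3. GATA3, MSX2, TFAP2A, HAND1 and GATA2 were lowest in conceptus 2, where 31.8% of the abundant features were lowest. GRHL1, TEAD3, TFAP2C and CDX2 were lowest in conceptus 3, where 31.2% of those features were lowest. None was lowest in conceptus 1, where 16.8% of those features were lowest, or in conceptus 4, where 20.3% were. Conceptus 1 held the highest value of 5 factors and of 33.9% of those features. GATA3 and HAND1 were highest in conceptus 3, where 14.4% were highest, and MSX2 and TFAP2A in conceptus 4, where 25.5% were. None was highest in conceptus 2, where 26.2% were. The summed level of the 9 factors was 319, 224, 253 and 290 RPKM in conceptuses 1 to 4. When the libraries were rescaled by their median ratio, GRHL1 was lowest in conceptus 2 instead, while rescaling by column sum moved no factor's highest or lowest library. The shares of the abundant features also moved with the scaling. With the median ratio 24.1%, 27.6%, 22.5% and 25.9% were lowest in conceptuses 1 to 4, and with the column sum 17.3%, 24.7%, 27.0% and 31.0%.

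**Figure D3:**
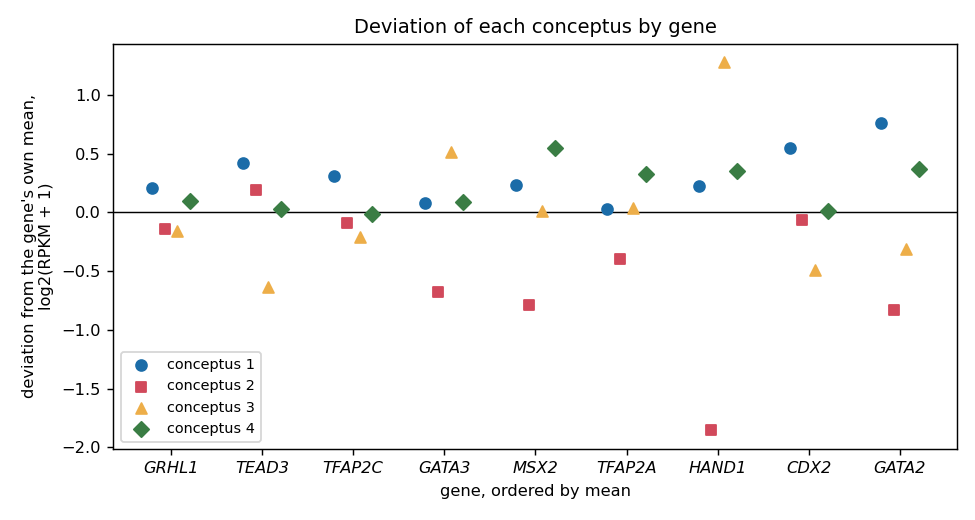
Deviation of each conceptus from the gene's own mean on the log2(RPKM + 1) scale, for the 9 factors ordered by mean level. HAND1 spans −1.86 in conceptus 2 to 1.28 in conceptus 3, and conceptus 2 lies at −0.68 for GATA3, −0.79 for MSX2 and −0.83 for GATA2.

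The ratio of the highest over the lowest library ranged from 1.29 for GRHL1 to 12.6 for HAND1. In 6 of the 9, namely TEAD3, GATA3, MSX2, HAND1, CDX2 and GATA2, the highest library was at least 2 times the lowest, where 21.9% of the abundant features had such a ratio. The count was 5 of 9 after rescaling by column sum and 4 of 9 after rescaling by median ratio, and 3 of 9 without conceptus 3. The ratio was 2.10 for TEAD3, 2.35 for GATA3, 2.65 for MSX2 and 3.92 for GATA2. It was under 2 without 1 library in 4 of the 6. For TEAD3 it was 1.32 without conceptus 3 and 1.80 without conceptus 1, and for GATA3 1.36 without conceptus 2 and 1.74 without conceptus 3. For MSX2 it was 1.48 without conceptus 2, and for CDX2 1.47 without conceptus 1 and 1.58 without conceptus 3. GATA2 and HAND1 kept a ratio over 2 without any 1 conceptus, at 2.41 and 2.16 without conceptus 2. The median coefficient of variation of the 9 factors was 32.4%, beside 20.5% over those features. The 3 factors under a ratio of 2 were GRHL1 at 1.29, TFAP2C at 1.45 and TFAP2A at 1.72.

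For each of these 6 factors the 3 most similar profiles were sought among 5363 other abundant features that have a symbol. The measure was the root mean square difference, over the 4 conceptuses, of the log2(RPKM + 1) deviations from each gene's own mean. A profile over 4 conceptuses is short, so these names are a description. TEAD3 was nearest to USP36 at a distance of 0.0250, SLC20A1 at 0.0263 and PCGF1 at 0.0481. CDX2 was nearest to SF3B4 at 0.0350, RCC1 at 0.0405 and MINA at 0.0414. MSX2 was nearest to LIMK2 at 0.0205, COX7A2 at 0.0222 and BAD at 0.0316. GATA3 was nearest to NOTCH2 at 0.0425, PBXIP1 at 0.0506 and PTPN6 at 0.0583, and GATA2 to CNO at 0.0355, with GADD45G at 0.0948 also among its 3 nearest.

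HAND1 had no match as close. Its nearest features were LGALS3 at 0.222, EPSTI1 at 0.388 and CD97 at 0.405, where the median distance of all candidates from HAND1 was 1.17. For the other factors searched, that median ranged from 0.376 for CDX2 to 0.588 for GATA2. LGALS3, which encodes a galectin, was at 12.8, 2.78, 26.7 and 20.6 RPKM in conceptuses 1 to 4. It too was lowest in conceptus 2 and highest in conceptus 3, which follows from its choice by likeness to HAND1. Among the 9 factors themselves, the closest pair was GRHL1 and TFAP2C at a distance of 0.0848, followed by TEAD3 and CDX2 at 0.162. The farthest was TEAD3 and HAND1 at 1.41, which deviate in opposite directions in conceptuses 2 and 3. The measure is not scaled for spread, so steady genes lie close to each other. GRHL1 and TFAP2C had the lowest coefficients of variation of the 9, 12.6% and 16.7%, and HAND1 the highest, 73.6%.

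Other regulators of trophoblast were measured in 36 of 40 cases. Of the 36, 29 averaged 1 RPKM or more, 17 were abundant and 5 averaged 20 RPKM or more, with a list median of 4.27 RPKM. Of the 17, 11 were lowest in conceptus 2, and 8 were after either rescaling. Of the abundant features, 31.8% were lowest there as deposited, 24.7% after rescaling by column sum and 27.6% after rescaling by median ratio. ARID3A, which promotes trophectoderm in mouse, was at 81.3, 49.7, 55.7 and 77.5 RPKM, a mean of 66.1 ± 15.7 RPKM, between GRHL1 and TEAD3. VGLL1 stood at 36.4 ± 5.59, the epithelial ETS factor ELF3 at 26.6 ± 8.66 and the general activator SP1 at 22.1 ± 1.85 RPKM. ETS2, which activates interferon tau promoters in ruminants and was picked with its values known, was at 16.6, 9.45, 9.52 and 16.4 RPKM.

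Several factors that define mouse trophoblast stem cells were not abundant, and these were picked with their values known. Of the 36 measured regulators in the list they come from, 17 were abundant, so they do not stand for that list. ELF5 was at 2.04, 2.08, 3.96 and 3.77 RPKM, while EOMES did not exceed 0.31 RPKM and ESRRB did not exceed 0.57 RPKM in any library. GCM1, the factor of syncytial trophoblast in mouse, did not exceed 0.08 RPKM. CDX2, in contrast, was at 7.89 RPKM or more in each library. ID2, another mouse trophoblast gene, was at 0.21 RPKM in conceptus 4 and listed at 0 in the others.

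**Figure D4:**
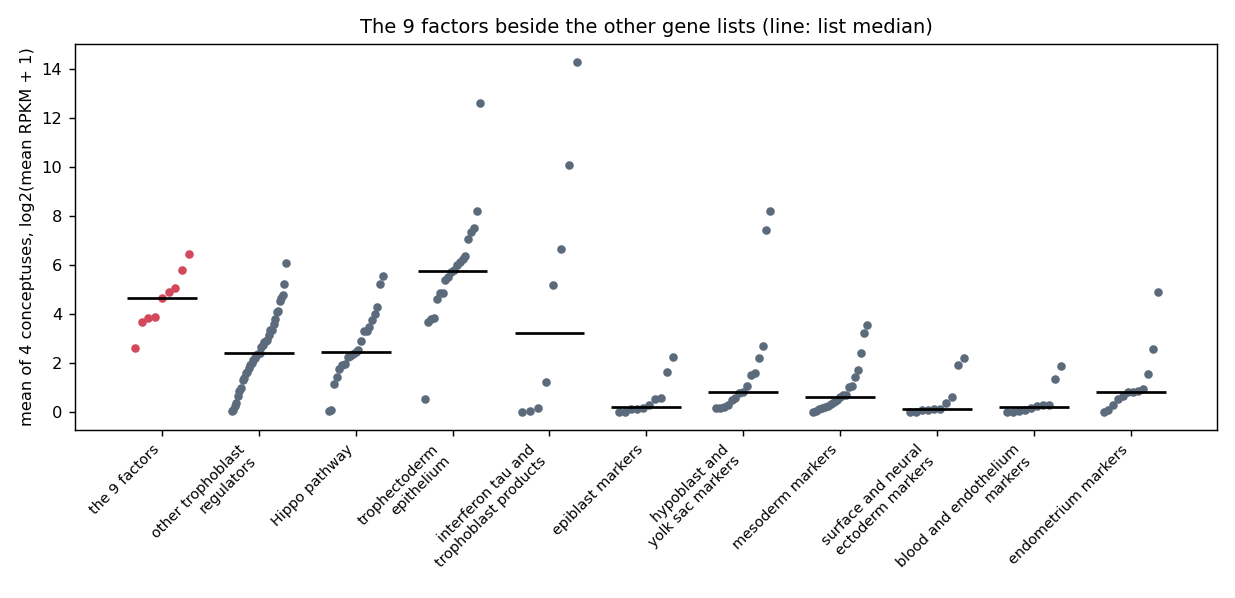
Mean level over 4 conceptuses, as log2(mean RPKM + 1), of the 9 factors (left) and of the measured genes of the other lists, 1 point per gene with a line at the list median. The 9 factors lie between 2.64 and 6.46 on this scale, and their median is 24.0 RPKM. The epiblast, hypoblast, mesoderm, ectoderm, blood and endometrium lists have medians under 1 RPKM. APOA1 and DAB2 of the hypoblast list, at 296 and 170 RPKM, lie above all 9 factors.

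Genes of the remaining tissues were described in the same way. Of 8 measured genes of interferon tau and other trophoblast products, 4 were abundant, namely TP-1, the cyclooxygenase PTGS2, the glucose transporter SLC2A1 at 98.6 ± 26.8 RPKM and the protease CTSL at 35.7 ± 13.5 RPKM. PTGS2 was at 473, 507, 1968 and 1424 RPKM, and PAG1, a pregnancy-associated glycoprotein, stood at 1.35 ± 0.302 RPKM. Of 15 hypoblast and yolk sac markers, 3 were abundant, namely the apolipoprotein APOA1 at 296 ± 105, the adaptor DAB2 at 170 ± 24.0 and the factor FOXA1 at 5.50 ± 2.29 RPKM. HNF4A followed at 3.68 ± 0.463 RPKM. Of 12 measured endometrium markers, 2 were abundant, IGFBP1 at 28.9 ± 10.4 and WNT7A at 5.04 ± 2.00 RPKM, and PGR, the progesterone receptor, was listed at 0 in all 4. The endometrium list summed to 49.9, 47.5, 19.6 and 44.9 RPKM and the hypoblast list to 662, 393, 424 and 455 RPKM in conceptuses 1 to 4.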

How the data were processed

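The 4 libraries are strand-specific and were read on an Ion Proton, per the labels' protocols. The RPKM values were computed and deposited by the authors. The genome build was Oar_v3.1 according to the submitters' processing notes, while the aligner, the counting tool, the annotation and whether strand was used in counting are not given in the sources read here. The unit is named only for a second deposited table, whose 5527 features have values identical to those of the table of 25197 features used here. No read counts were used, so depth is unknown, no counting interval can be given, and a value of 0 is reported as listed at 0. The column sums ranged from 454387 to 522308 RPKM.

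Genes were matched by feature name. The 9 factors and the 17 gene lists (7 families and 10 others) were chosen with earlier results of these data known. Named are the 9 factors, every measured gene of their families, the 5 highest genes of each other list, and the 3 nearest features of each factor whose highest library is at least 2 times its lowest. A few genes named by this rule are left out of the text. Markers at or near 0 in all 4 conceptuses (FGF4, UTF1, T, SIX3 and PGR) were named with their values known, and any other gene is marked as picked in that way. The ± values are SDs over the 4 conceptuses. Where nothing else is said, the spread covers animal and library together. Differences between genes were taken within each library on log2(RPKM + 1), computed from the deposited values, and tested by exact permutation of their signs, two-sided, with Benjamini-Hochberg adjustment. The alternatives were a pseudocount of 0.1, rescaling of the libraries by column sum or by median ratio, and leaving out each conceptus. The profile search was tested on simulated data. Python 3.11.15, numpy 2.4.6, pandas 2.3.3 and matplotlib 3.10.9 were used.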

Additional observations from a re-analysis of the deposited data

Results flagged for a closer look

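In 103 sets of 4 values, the conceptus at either end was compared with the next one by Dixon's ratio of that gap to the full range. The sets were those of genes named by the rule given above and of the differences between genes. Genes picked outside that rule, such as COL3A1, ID2 and T, were not among them. In 4 sets the ratio passed the 95% critical value, where chance gives about 1 in 20, or 5.15 sets. CDX2 minus GATA2 was 1.90 on the log2(RPKM + 1) scale in conceptus 2, and 0.77 to 0.95 in the others. GATA2 minus GATA4 was 0.20 in conceptus 2, where GATA2 was lowest, and 1.25 to 1.43 in the others. TP63 was at 6.76 RPKM in conceptus 3, and at 1.68 RPKM or less in the others. GDF3, an epiblast marker, was at 0.06 RPKM in conceptus 3, and at 0.24 to 0.27 RPKM in the others. None of the 9 factors was set apart by its own level.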

How the results depend on the processing

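The mean of each of the 9 factors moved by less than its SD under both rescalings. It did so without any 1 conceptus as well, which holds by construction with 4 values. All 23 differences within families kept their direction under the 7 alternatives. That too holds by construction, since each had the same sign in 4 of 4 conceptuses, so it adds no support. Among neighbours in level, TFAP2A minus HAND1 turned to −0.10 and HAND1 minus CDX2 to 0.41 on the log2(RPKM + 1) scale without conceptus 2. TFAP2A minus HAND1 spanned −0.10 to 0.80, and HAND1 minus CDX2 −0.77 to 0.41, with 1 conceptus left out. Leaving out 1 conceptus gave a ratio of the highest over the lowest library of 2.16 to 12.6 for HAND1, 2.41 to 3.92 for GATA2, 1.48 to 2.65 for MSX2, 1.36 to 2.35 for GATA3 and 1.32 to 2.10 for TEAD3. The number of factors with a ratio of at least 2 was then 3 to 6, and the number lowest in conceptus 2 was 5 to 8. The count of GATA genes at a mean of 5 RPKM or more was 1 to 2, and that of endometrium markers 1 to 2, or 1 with either rescaling. Of the 3 nearest features, 1 remained for CDX2 with a pseudocount of 0.1, and 1 for GATA3 and 1 for HAND1 with candidates from a mean of 1 RPKM; the cause was not tested. Counts of genes at 5 RPKM or more are the same by construction when features under a mean of 1 RPKM are left out. The share of features with a lower coefficient of variation was 9.33% for GRHL1 to 70.2% for HAND1 against all features above 0, beside 20.6% and 99.3% against the abundant features, and was lower for each of the 9 factors (38.5% beside 73.4% for TEAD3). The median ratio rescaling shifted single libraries by −0.11 to 0.08 on the log2 scale. No paired analysis was possible because the 4 conceptuses form 1 group with no second group to pair them with; differences between genes were taken within conceptuses throughout. Counts behind the RPKM are unknown, so the precision of low values cannot be stated.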

Other observations

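The genes next to the 9 factors, by their order in the RefSeq gene table of the assembly ARS-UI_Ramb_v3.0, were looked up after the data were seen, and all 9 factors have their name in that table. CDX2 lies between URAD, at 0.803 ± 0.480 RPKM (SD, n = 4), and the pancreatic factor gene PDX1, which was listed at 0 in all 4 conceptuses. GRHL1 at 86.9 RPKM lies between TAF1B at 1.97 ± 0.406 and KLF11 at 1.19 ± 0.180 RPKM. GATA3 lies between TAF3 at 6.35 ± 1.73 RPKM and CELF2 at 0.158 ± 0.121 RPKM. HAND1 and GATA2 have abundant neighbours that varied little between the conceptuses, LARP1 at 91.1 ± 6.35 RPKM beside HAND1 and RPN1 at 476 ± 46.0 RPKM beside GATA2. TFAP2C lies beside the signalling gene BMP7, which was at 14.5, 6.62, 8.89 and 6.85 RPKM in conceptuses 1 to 4. In that assembly TEAD3 overlaps a pseudogene and GATA2 overlaps a protein-coding locus, neither of which was analysed here, and whether reads were shared with them was not tested.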
